A study of Mus musculus with 2 samples.

Results

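Cytochrome c oxidase, complex IV of the respiratory chain, passes electrons from cytochrome c to oxygen in the inner mitochondrial membrane. Its catalytic core is encoded by mitochondrial DNA and its other subunits by nuclear genes. Several nuclear subunits exist as a pair of isoforms from separate genes, one made in most tissues and one restricted to certain tissues. Cox6a2, Cox7a1 and Cox8b are known as the isoforms of heart and skeletal muscle, with Cox6a1, Cox7a2 and Cox8a as their ubiquitous counterparts. Cox4i1 is the ubiquitous form of subunit IV, and Cox4i2 is known from lung and from the response to low oxygen rather than from muscle fibres. These 8 genes were taken by symbol from the deposited count table, in which 7 of them were among 16190 genes. Cox4i2 had no row there and was not analysed here, so no isoform ratio was formed for subunit IV.

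The counts came from RNA of cells labelled as satellite cells, the stem cells of skeletal muscle, isolated from the tibialis anterior muscle of C57BL/6 mice. There is 1 library from Cipc flox/flox mice, whose Cipc alleles carry loxP sites (titled Cipc+/+, here the control library), and 1 from Cipc scko mice, a knockout of Cipc directed to satellite cells (titled Cipc-/-, here the knockout library). For the Cre driver, the age of the mice, the number pooled and any time in culture, no label gives a value. The series title also names mdx, the dystrophin-deficient mouse, while the labels of these samples do not. The CIPC protein is known to repress the clock activators CLOCK and BMAL1. With 1 library per genotype no difference has a replicate check and no p-value was computed. Every interval below is a 95% interval that covers counting error only, and every value describes these libraries rather than the genotypes.

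The knockout library held 16830168 counts and the control library 16145870. Cipc itself had 594 counts in the knockout and 1907 in the control library, 3.04-fold lower after scaling. Where values are paired below, the knockout library comes first. The libraries also differed in sex-linked genes: Xist had 4 and 3898 counts, and the Y-linked gene Ddx3y had 511 and 0. The genotype and this difference cannot be told apart. Both libraries held satellite cell markers, led by Itga7 (1358 and 1083 CPM, counts scaled to a common library size) and Cdh15 (530.3 and 413.6 CPM), while Pax7 stood at 62.2 and 2.54 CPM. A call required a ratio of at least 2-fold with an interval that excluded equality. By that rule 21.2% of the 12874 genes with enough counts were higher in the knockout library and 15.9% were lower (37.2% in either direction). Of 10 satellite cell markers, Calcr and Chodl had no row in the table and 8 were counted, with 3 higher, 0 lower and 5 not called. The higher ones were Pax7, Cxcr4 (68.2 and 31.7 CPM) and Fgfr4, a growth factor receptor gene with 4780 and 0 counts. Fgfr4 had enough counts only through the knockout library, where it was high.

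The members did not move as a block. 2 of the 7 counted members, the muscle isoforms Cox6a2 and Cox8b, were higher in the knockout library by the rule, and 0 were lower, against the 21.2% and 15.9% of all genes. Both of these passed the filter on low counts only through the knockout library, where they were high. The third muscle isoform, Cox7a1, was sparse in both libraries and was not called. The 4 ubiquitous isoforms were abundant in both libraries, and none reached a 2-fold difference. With a limit of 1.5-fold, 5 members were higher and 0 lower, against 29.0% and 25.8% of all genes. With a limit of 4-fold, 2 were higher and 0 lower, against 12.5% and 6.68%. The median log2 ratio, knockout over control, was 0.81 over the 7 members, with Cox6a2 at its fitted value or at its bound, and 0.01 over all genes past the filter.

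**Figure D1:**
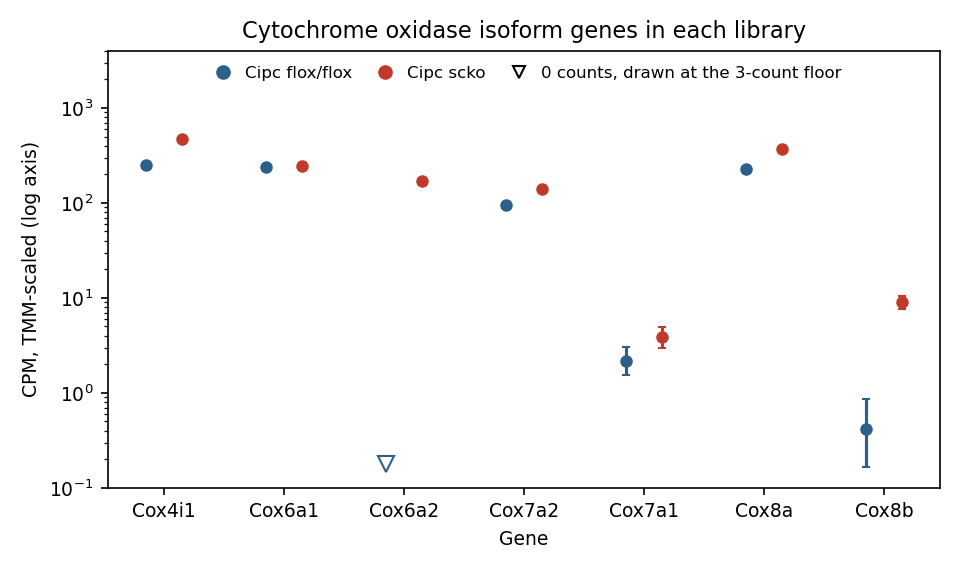
Level of each member in CPM (TMM-scaled, log axis) in the Cipc flox/flox library (blue) and the Cipc scko library (red), 1 library each, with bars for the 95% Poisson counting interval. The open triangle marks Cox6a2 in Cipc flox/flox, at 0 counts and drawn at the floor of 3 counts; Cox6a2 and Cox8b lie furthest apart between the libraries, Cox4i1 differs 1.88-fold and Cox8a 1.62-fold, and Cox6a1 is nearly level.

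Sequence upstream of the gene was available from RefSeq (GRCm38.p6) for 5 of the 8 members. Cox4i1, Cox4i2 and Cox6a2 had no entry. The window ran from base -250 to base -31 before the RefSeq start, a length of 220 bases. Both complete pairs are shown, because they set a muscle isoform that differed 20.3-fold between the libraries (Cox8b) and one that did not reach 2-fold (Cox7a1) beside their ubiquitous partners. All are written 5′ to 3′ on the strand of the gene, with CpG dinucleotides in capitals. They lie at chr7:140900477-140900696 (Cox8b, minus strand), chr19:7217647-7217866 (Cox8a, minus strand), chr7:30183921-30184140 (Cox7a1, plus strand) and chr9:79759884-79760103 (Cox7a2, minus strand).
Cox8b: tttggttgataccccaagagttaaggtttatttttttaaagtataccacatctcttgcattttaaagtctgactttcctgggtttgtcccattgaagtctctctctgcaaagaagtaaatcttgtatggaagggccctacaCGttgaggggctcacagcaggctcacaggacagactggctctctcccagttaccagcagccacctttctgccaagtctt
Cox8a: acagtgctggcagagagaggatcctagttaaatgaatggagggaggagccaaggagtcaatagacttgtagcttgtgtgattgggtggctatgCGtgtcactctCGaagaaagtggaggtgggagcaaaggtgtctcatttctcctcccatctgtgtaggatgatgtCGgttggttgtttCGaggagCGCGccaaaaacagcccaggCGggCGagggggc
Cox7a1: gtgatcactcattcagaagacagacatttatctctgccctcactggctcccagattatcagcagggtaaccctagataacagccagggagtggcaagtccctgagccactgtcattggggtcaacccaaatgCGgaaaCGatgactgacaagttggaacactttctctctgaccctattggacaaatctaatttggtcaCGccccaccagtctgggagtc
Cox7a2: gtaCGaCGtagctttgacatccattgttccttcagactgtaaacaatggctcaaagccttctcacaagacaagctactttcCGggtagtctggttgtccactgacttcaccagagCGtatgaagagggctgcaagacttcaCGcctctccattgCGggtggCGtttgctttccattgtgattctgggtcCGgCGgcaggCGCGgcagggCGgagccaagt

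Of the 5 windows, those of the muscle isoforms had the fewest CpG dinucleotides. Cox8b had 1 and Cox7a1 had 3, whereas Cox8a had 8, Cox7a2 had 12 and Cox6a1 had 20. The median over 32851 promoter windows of the same length was 5, with 25% of windows at 2 or below and 75% at 13 or below. The Cox6a1 window held 2 matches to GCGCA, any base, then GCGC, the core of the site bound by the respiratory gene activator NRF-1, a match found in 2.78% of windows. None of the other 4 windows held it, and none of the 5 held CCGGAAG, a core for the ETS factor GABPA (1641 of 32851 windows), or the MEF2 consensus (2.60%). An E-box, CANNTG, stood once in Cox7a1 and once in Cox8a and not in Cox8b, Cox7a2 or Cox6a1, beside 62.1% of all windows. All motifs were searched on both strands. The windows of Cox8b and Cox7a1 were thus both below the median in CpG. Any link of these sequence features to the differences between libraries was not tested.

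Markers of differentiating muscle cells moved with Cox6a2 and Cox8b. Of 18 such markers, 17 passed the filter and 17 were higher in the knockout library. Mymx, Ckm, Mb, Actc1, Tnnc2, Myh1, Myh3, Myh4, Myh7, Myh8 and Casq1 passed it only through that library, where they were high. Some markers of the lists that follow also passed only through the library where they were high. Beside each list stand the shares of all genes, 21.2% higher and 15.9% lower. The 18 markers summed to 23338 CPM in the knockout library and 68.3 CPM in the control library. Myh1, Myh2, Myh7, Myh8 and Casq1 were at 0 counts in the control library. The most counted in the knockout library were Acta1, the actin of skeletal muscle (10868 and 8.80 CPM), and Myog (2758 and 3.13 CPM), and in the control library the fusion gene Mymk (667.4 and 20.7 CPM) and the light chain gene Mylpf (2248 and 18.1 CPM). Among 11 pericyte and smooth muscle markers, 7 had a row, 6 of them higher and 1 lower. Their summed level was 14198 and 663 CPM, most of it from Acta2 (12432 and 513.2 CPM). Tagln stood at 1320 and 35.9 CPM and Pdgfrb at 265.8 and 83.9, with Abcc9 at 0 in the control library. The lower one was Cspg4, at 7 and 491 counts (log2 -5.96). Rgs5, Kcnj8, Higd1b and Myh11 had no row. Of 8 endothelial markers, 2 passed the filter (Kdr and Vwf, both higher), and the list summed to 12.2 and 1.65 CPM, with Tek at 0 in the knockout and Pecam1 at 0 in the control library. Of 7 macrophage markers, 3 passed, Csf1r higher and Cd68 and Cd14 lower, with sums of 6.17 and 47.3 CPM. Of 9 fibro-adipogenic markers, 7 passed, 2 higher and 4 lower, with sums of 3049 and 2270 CPM. The higher ones were Col3a1 (2177 and 849.5 CPM) and Col1a1 (448.2 and 115.6). The lower ones were Col1a2 (17.3 and 803.3 CPM), Pdgfra (0.685 and 8.68), Cd34 (0.187 and 25.2) and Dcn (0.0623 and 8.39). The part of any of these in the isoform differences was not tested. In bulk RNA, fewer cells of a type and less RNA per cell cannot be told apart.

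Cox6a2 showed the widest difference of the members. It encodes the muscle form of subunit VIa, a small subunit at which ATP and ADP are known to tune the enzyme. Cox6a2 (ENSMUSG00000030785, GRCm38 chromosome 7, 128205435 to 128206387, minus strand) had 2713 counts in the knockout library and 0 in the control library. Set against a floor of 3 counts in the control library, its level of 169.0 CPM in the knockout library was 953-fold higher. The exact 95% lower limit of the ratio was 775-fold. Of the 12874 genes past the filter, 0.186% had an interval limit as far above equality. Cox6a2 lies within the span of Itgad on the opposite strand, a gene with no row in the count table. Whether counting used strand is not given in the sources used here. The nearest counted gene at higher coordinates, 9130023H24Rik, 28071 bases away, had 127 and 120 counts (log2 0.16, -0.21 to 0.53). The nearest one at lower coordinates, the muscle membrane repair gene Trim72, lies 194402 bases away and had 6789 and 29 counts.

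Cox6a1, the ubiquitous form of the same subunit, was nearly level. Cox6a1 (ENSMUSG00000041697, chromosome 5, 115345642 to 115348981, minus strand) had 3893 counts in the knockout library and 4026 in the control library, or 242.5 and 237.9 CPM. The log2 ratio was 0.03 (-0.04 to 0.09), and with scaling by library totals it was -0.11 (-0.17 to -0.04), so its sign depended on scaling. Cox6a2 therefore stood in the knockout library beside a Cox6a1 level close to that of the control library.

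The makeup of subunit VIa differed accordingly. Per 100 counts of Cox6a1 there were 69.7 counts of Cox6a2 in the knockout library and 0 in the control library. There, 0 of 4026 counts of the pair came from Cox6a2. The floor of 3 counts would be a share of 0.0745%, and the exact 95% upper limit was 0.0916%. The isoform ratio needs neither library scaling nor gene length for the comparison between libraries. It was 935-fold higher in the knockout library with the control library set to the floor of 3 counts, with an exact 95% lower limit of 759-fold. Per length, in the deposited FPKM (fragments per kilobase, scaled to the library total), Cox6a2 stood at 237.1 and Cox6a1 at 194.2 in the knockout library, so Cox6a2 made up 55.0% of the pair (53.7% to 56.2%). Which isoform led depended on the length used. The FPKM imply 1191 bases for Cox6a1 and 680 for Cox6a2, while the longest annotated transcripts measure 620 and 680 bases and give Cox6a2 38.9% of the pair. The plain count share was 41.1% (39.9% to 42.3%).

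**Figure D2:**
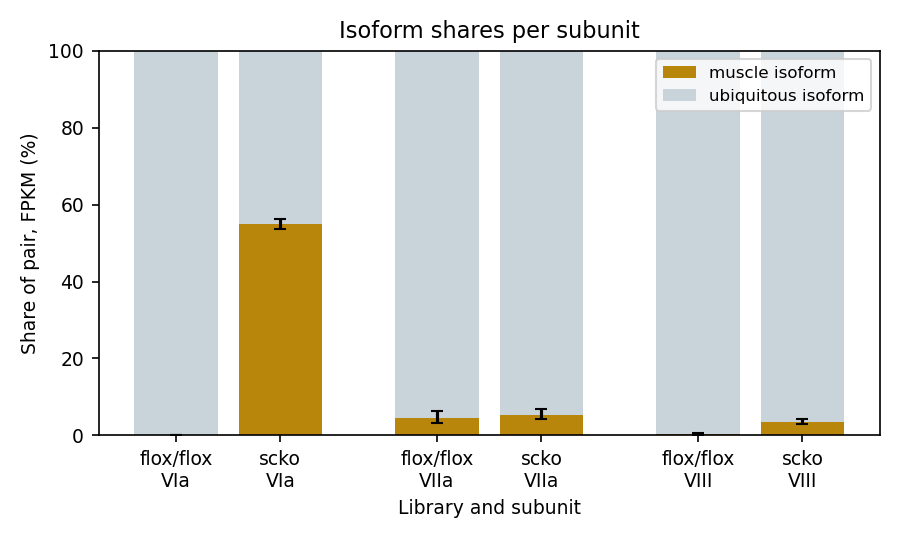
Share of the muscle isoform (gold) and of the ubiquitous isoform (pale blue-grey) in the summed FPKM of each pair, in percent, for subunits VIa, VIIa and VIII in each library. Bars on the gold part give the 95% interval of the count split carried to the FPKM scale; the gold part covers 55.0% of subunit VIa in Cipc scko and at most 5.40% in every other column.

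Cox8b, the muscle form of subunit VIII, was also higher in the knockout library, at a far lower level. Cox8b belongs to the smallest nuclear-encoded subunits and is known to be a pseudogene in humans. Cox8b (ENSMUSG00000025488, chromosome 7, 140898945 to 140900446, minus strand) had 144 counts in the knockout library and 7 in the control library, or 8.97 and 0.414 CPM. That is a log2 ratio of 4.34 (3.36 to 5.78), a 20.3-fold difference (10.3 to 54.9). Of all genes past the filter, 5.51% had an interval limit as far above equality. Its neighbour Psmd13, a proteasome subunit gene 302 bases away, had 2296 and 2778 counts (log2 -0.20, -0.28 to -0.12). On the other side Pgghg, 40945 bases away, had 546 and 293 counts (log2 0.97, 0.77 to 1.18). Neither neighbour was called.

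Cox8a, its ubiquitous partner, had the highest FPKM of the members in both libraries. Cox8a (ENSMUSG00000035885, chromosome 19, 7215153 to 7217616, minus strand) had 5941 counts in the knockout library and 3856 in the control library, or 370.1 and 227.8 CPM. Its log2 ratio was 0.70 (0.64 to 0.76), a 1.62-fold higher level in the knockout library that did not reach 2-fold. Its nearest counted neighbours Otub1 and Naa40 stood at log2 -0.24 and -0.63. Per length, Cox8b made up 3.52% of subunit VIII in the knockout library (2.98% to 4.13%) and 0.273% in the control library (0.110% to 0.561%). The ratio of Cox8b to Cox8a counts was 13.3-fold higher in the knockout library (6.31 to 33.8). The muscle isoform thus remained a small part of subunit VIII in both libraries, unlike in subunit VIa.

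Cox7a1, the muscle form of subunit VIIa, was sparse in both libraries and was not called. Subunit VIIa lies at the surface where complex IV meets its partners, and Cox7a1 is known to accumulate as muscle matures after birth. Cox7a1 (ENSMUSG00000074218, chromosome 7, 30184144 to 30186078, plus strand) had 62 counts in the knockout library and 37 in the control library, or 3.86 and 2.19 CPM. The log2 ratio was 0.81 (0.21 to 1.45), which did not reach 2-fold. Its neighbours Gm5113 and Capns1 stood at log2 0.81 and -0.03. Cox7a2 (ENSMUSG00000032330, chromosome 9, 79755361 to 79759878, minus strand), the ubiquitous form, had 2248 and 1594 counts, or 140.0 and 94.2 CPM, a log2 ratio of 0.57 (0.48 to 0.67). Cox7a1 made up 5.40% of subunit VIIa per length in the knockout library (4.18% to 6.85%) and 4.59% in the control library (3.26% to 6.24%). The isoform ratio differed 1.19-fold (0.774 to 1.85), an interval that holds equality. At this depth no shift of subunit VIIa towards its muscle isoform was detectable, and a shift of up to 1.85-fold is within counting error.

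Cox4i1, the form of subunit IV that could be measured, was 1.88-fold higher in the knockout library, just under the 2-fold limit. Subunit IV is the largest nuclear-encoded subunit and carries a site of ATP inhibition. Cox4i1 (ENSMUSG00000031818, chromosome 8, 120668222 to 120674207, plus strand) had 7548 counts in the knockout library and 4223 in the control library, or 470.2 and 249.5 CPM. Its log2 ratio was 0.91 (0.86 to 0.97). It overlaps Gm20388, a protein-coding gene on the same strand with no row in the count table. It also overlaps Emc8, on the opposite strand, over 352 bases, and Emc8 had 562 and 582 counts (log2 0.03, -0.14 to 0.20). The nearest other counted genes were Gm27021, 143 bases before it, with 30 and 0 counts, and Irf8, 62151 bases after it, with 1536 and 1. Among the ubiquitous isoforms the log2 ratios thus ran from 0.03 for Cox6a1 through 0.57 for Cox7a2 and 0.70 for Cox8a to 0.91 for Cox4i1. With scaling by totals these values became -0.11, 0.44, 0.56 and 0.78, since that scaling shifts log2 ratios by -0.14 and puts the median of all genes at -0.13.

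All 3 muscle isoforms lie on chromosome 7, far apart from each other, and the 4 ubiquitous ones on chromosomes 5, 8, 9 and 19. The median log2 ratio of the genes on chromosome 7 was 0.40. Relative to it, Cox8b stood 3.94 higher and Cox7a1 0.41 higher on the log2 scale, and the bound for Cox6a2 stood 9.49 higher. The medians of the other 4 chromosomes were -0.04 (chromosome 5), 0.18 (chromosome 8), 0.25 (chromosome 9) and -0.08 (chromosome 19). No member had a near-identical copy, meaning another annotated transcript with at least 95% identity over 80% of the shorter one. Cox4i1 had a partial match, 154 bases at 100% identity with its overlapping gene Emc8.

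The isoforms of each subunit were then added, to see whether its total differed. In FPKM, subunit VIa summed to 431.3 in the knockout library and 209.4 in the control library, 2.06-fold higher, and 1.04 in log2. With the longest annotated transcripts and TMM scaling the log2 ratio was 0.74. Subunit VIII summed to 671.3 and 439.4 FPKM (1.53-fold), and subunit VIIa to 187.3 and 137.2 FPKM (1.36-fold). Cox6a2 held 237.1 of the 431.3 FPKM in the knockout library, while Cox6a1 stood at 194.2 there and at 209.4 in the control library. For subunits VIIa and VIII most of the difference lay in the ubiquitous isoform: Cox8a stood at 647.7 and 438.2 FPKM against 23.6 and 1.20 for Cox8b, and Cox7a2 at 177.1 and 130.9 against 10.1 and 6.30 for Cox7a1. FPKM levels of different genes rest on the length behind them: Cox4i1 had 168.5 FPKM in the knockout library with an implied length of 2661 bases, while its longest transcript measures 765 bases.

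**Figure D3:**
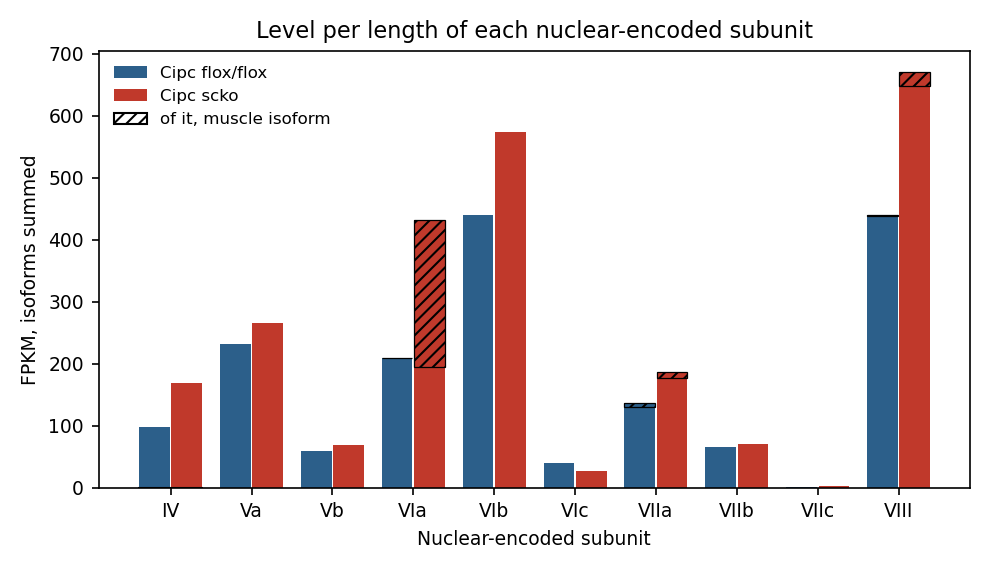
FPKM of each nuclear-encoded subunit of complex IV with its isoforms summed, in Cipc flox/flox (blue) and Cipc scko (red), 1 library each, with the part of the muscle isoform hatched. Subunit VIa reaches 431.3 FPKM (red) and 209.4 FPKM (blue), and in its red bar alone does the hatched part exceed the rest of the bar.

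The other genes of complex IV were counted by the same rule. Of 11 other structural subunits and associated proteins listed, 9 had a row in the table, and 3 were higher, 1 lower and 5 not called (median log2 0.36), against 21.2% higher and 15.9% lower over all genes. The testis form of subunit VIb, Cox6b2, had 35 and 0 counts and passed the filter only through the knockout library, where it was high. Against the floor of 3 counts it was 12.3-fold higher in the knockout library, with an exact 95% lower limit of 9.49-fold. Cox7a2l, which encodes a relative of subunit VIIa, stood at 299.5 and 113.8 CPM (log2 1.40, 1.32 to 1.47). An annotated partial copy, Gm6969, matches 201 bases of Cox7a2l at 100% identity and had no row in the table. Cox7c, the single form of subunit VIIc, had 108 and 29 counts (log2 1.95, 1.37 to 2.62). Those counts are low beside the other subunits, and Cox7c has 4 annotated partial copies of at least 95% identity, of which Gm10012 had 51 and 33 counts, so its level is uncertain. Ndufa4, first assigned to complex I and now counted with complex IV, was lower in the knockout library at 64.4 and 136.4 CPM (log2 -1.08, -1.19 to -0.98). Cox5a, Cox5b, Cox6b1 and Cox7b lay between 0.21 and 0.52 in log2. Cox6c stood at -0.37 and lies on chromosome 15, whose genes had a median log2 ratio of -0.68. Cox5b, Cox6c and Cox7b have near-identical annotated copies, of which Gm11273, a copy of Cox5b, was counted, so these 3 levels are uncertain. The mitochondrially encoded core subunits were not called, with mt-Co1 at log2 0.50, mt-Co3 at 0.27 and mt-Co2 at -0.26.

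Assembly factors, which insert haem and copper and stabilise the core subunits, were mostly not called. Of 28 counted members, 2 were higher, 3 lower and 23 not called, against 21.2% higher and 15.9% lower over all genes, with a median log2 ratio of 0.18. Smim20, which holds the newly made core subunit COX1, had 662 and 36 counts (log2 4.26, 3.79 to 4.80). Higd2a, an assembly factor of supercomplexes, stood at 73.7 and 28.1 CPM (log2 1.39). The copper chaperone gene Sco2 stood at 9.47 and 36.7 CPM (log2 -1.95, -2.22 to -1.70), and Cox20, a chaperone of COX2, at 5.11 and 12.5 CPM (log2 -1.28). Sco2 lies on chromosome 15, where the median log2 ratio was -0.68. Pet117, another assembly factor, had 1 and 165 counts (log2 -6.72, -12.60 to -4.79). It passed the filter only through the control library, where it was high. Scaling by totals raised the number lower from 3 to 5.

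**Figure D4:**
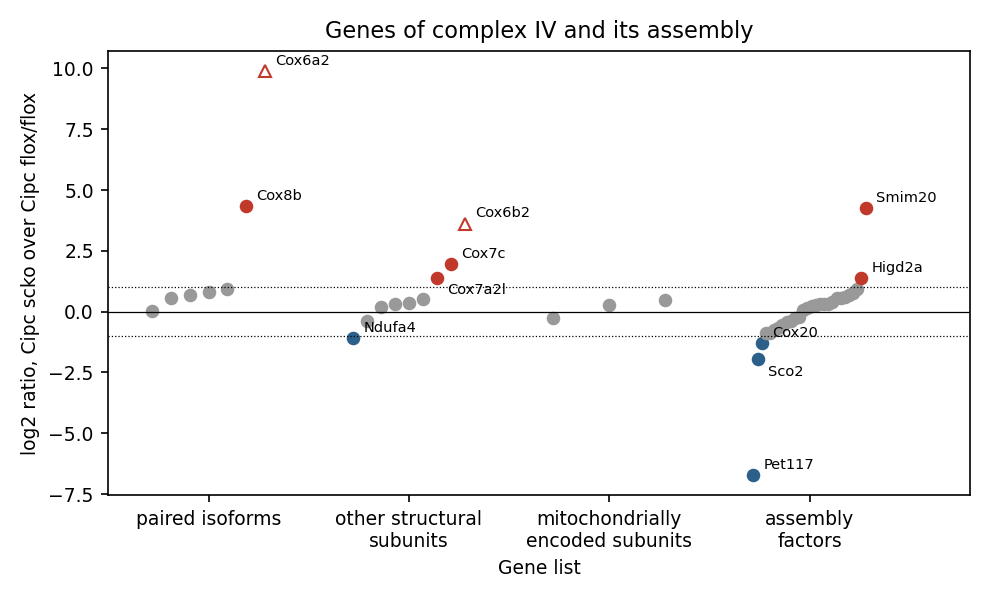
The log2 ratio, knockout over control library, for each gene past the filter in 4 lists of complex IV genes, in red where called higher, blue where called lower and grey where not called; open triangles are bounds for genes at 0 counts in Cipc flox/flox, and dotted lines mark 2-fold. Cox6a2 and Cox8b stand above the other paired isoforms, while the 3 mitochondrially encoded subunits lie between -0.26 and 0.50.

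Regulators of mitochondrial genes were set out beside the members. Of 16 past the filter, 4 were higher, 1 lower and 11 not called (median log2 0.39), against 21.2% higher and 15.9% lower over all genes. Ppargc1a, the coactivator known to drive mitochondrial gene expression in muscle, was sparse, at 33 counts in the knockout library and 77 in the control library (log2 -1.13, -1.78 to -0.54). Rbpj, the DNA-binding effector of Notch signalling, stood at 137.4 and 52.3 CPM (log2 1.39), and the zinc finger gene Cxxc5 at 110.8 and 47.5 CPM (log2 1.22). Both are known as regulators of the Cox4i2 promoter, for which no value is given here. Chchd10, which encodes a mitochondrial intermembrane space protein, had 259 and 68 counts (log2 2.00), and the Ndufa4 relative Ndufa4l2 had 29 and 2 (log2 3.63, 1.95 to 7.05). Ndufa4l2 passed the filter only through the knockout library, where it was high. Nrf1 and Gabpa, activators of many respiratory genes, were not called at log2 -0.16 and -0.33, nor was Polrmt, the mitochondrial RNA polymerase, at -0.99. The number lower was between 0 and 2 under other scalings, filters and pseudocounts.

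The same isoform ratio was taken for other metabolic pairs with a muscle form and a partner, which need not be a ubiquitous form. Of 8 pairs listed, 7 could be formed. In 6 of them the ratio was higher in the knockout library with an interval that excluded equality, in 1 it was lower, and in the 3 complex IV pairs it was higher in 2. The creatine kinase ratio of Ckm to Ckb differed by 9.26 in log2 (7.69 to 11.55), that of glycogen phosphorylases Pygm to Pygb by 9.14 (8.33 to 10.10) and that of phosphoglycerate mutases Pgam2 to Pgam1 by 7.05 (6.55 to 7.61). In the control library these ratios rest on few muscle isoform counts, 3 for Ckm, 12 for Pygm and 32 for Pgam2. Near-identical copies of the genes in these other metabolic pairs were not sought. For Cox6a2 to Cox6a1 the log2 change was 9.87 at the floor, with a lower limit of 9.57 and no upper limit. That lower limit lies above the interval of the phosphoglycerate mutase pair. No order against the creatine kinase and phosphorylase pairs can be given. The value of 3.74 for Cox8b to Cox8a (2.66 to 5.08) lies between these 3 metabolic pairs and the other 4. Phosphofructokinase Pfkm to Pfkl differed by 1.35, carnitine palmitoyltransferase Cpt1b to Cpt1a by 0.78 (0.15 to 1.42) and adenine nucleotide translocase Slc25a4 to Slc25a5 by 0.61. The interval for Cox7a1 to Cox7a2, -0.37 to 0.88, overlaps the last 2 of these. The ratio of enolases Eno3 to Eno1 was lower in the knockout library (-0.53, -0.58 to -0.47).

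**Figure D5:**
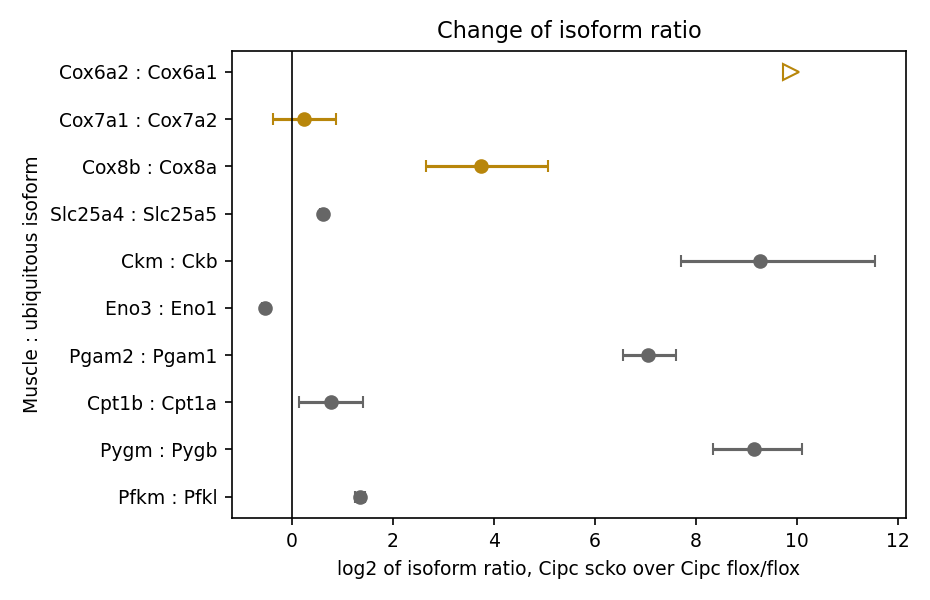
The log2 change of the ratio of the muscle isoform to its partner, Cipc scko over Cipc flox/flox, with exact 95% counting intervals. Gold marks 3 complex IV pairs. Grey marks 7 other metabolic pairs, whose partners are labelled ubiquitous on the axis but need not be so. The open arrow for Cox6a2 is a bound at the floor of 3 counts (9.87); Cox7a1 to Cox7a2 is the pair whose interval crosses 0.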

How the data were processed

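RNA of 2 libraries, 1 per genotype, was compared. Raw counts by Ensembl gene, in whole numbers, were deposited by the authors in a table of both libraries, and FPKM in a file for each, per the file headers. HISAT2 2.0.4, StringTie 1.3.0, CASAVA and the GRCm38 build are listed, without roles, per the submitters' processing notes. Annotation, counting tool and strand setting: not given in the sources used here. The deposited FPKM are the counts rescaled by totals and gene length: over 10899 genes with at least 20 counts in both libraries, the FPKM ratio divided by the ratio of total-scaled CPM lay between 0.99996 and 1.00003.

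GENCODE vM21 gave symbols for 16116 of 16190 genes. Counts were TMM-scaled (edgeR 4.0.16, R 4.3.3). Genes needed 1 CPM in a library and 20 counts over both, which left 12874. Ratios used a prior count of 0.5, and their intervals the exact binomial (Clopper-Pearson) split of the counts. Isoform ratios used the conditional odds ratio with its exact interval (scipy 1.17.1). Since PCR copies cannot be told from separate molecules here, intervals and the floor of 3 counts (0.177 CPM in Cipc flox/flox) cover counting error only. Copies were sought with BLAST+ 2.17.0, for the members and the other structural subunits only. The scripts were tested on simulated data.

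The members, gene lists, motifs and pairs were chosen with earlier results of these data known. Named genes were all members, every called gene of the other lists with the highest and lowest of at least 5 CPM, and the most counted markers; neighbours, Xist, Ddx3y, Pax7 and genes given for comparison fell outside that rule and were named after their values were seen. Alternatives were other scalings (DESeq2 1.42.0 among them), filters, prior counts, FPKM with a pseudocount, fold limits and transcript lengths.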

Additional observations from a re-analysis of the deposited data

How the results depend on the processing

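None of the 53 alternative values of single members reversed a ratio whose interval excluded equality, and under 12 alternatives the number of members called higher stayed at 2 except with a fold limit of 1.5, which gave 5 (29.0% of all genes were then higher). The number called lower stayed at 0 under all 12. The shares of the muscle isoform depended on the length used. In Cipc scko, subunit VIa held 41.1% with raw counts, 38.9% with the longest annotated transcript and 36.9% with the longest protein-coding transcript (the last chosen after seeing the data), against 55.0%. Subunit VIIa held 2.68%, 3.61% and 3.61% in Cipc scko and 2.27%, 3.06% and 3.06% in Cipc flox/flox, and subunit VIII 2.37% with raw counts in Cipc scko. The summed pairs differed in log2 by 0.79 (CPM) and 0.74 (per longest transcript) for VIa, 0.58 and 0.58 for VIIa, and 0.73 and 0.75 for VIII, because FPKM are scaled by totals and by other lengths. Of the alternatives for the isoform ratios between libraries, the ratio from FPKM could not differ, because library scaling and gene length cancel in it. Adding 0.5 to each count gave a log2 change of 0.24 for VIIa and 3.64 for VIII, inside their intervals. For VIa only the FPKM ratio was run, so its dependence on processing was not tested. Over all genes, 1479 were higher with FPKM and a pseudocount of 1, 3318 lower with a fold limit of 1.5, and 1608 higher and 860 lower with a limit of 4, against 2732 and 2053. Counts summed with near-identical copies were not run, since no member has one. No paired analysis was possible because each genotype has 1 library, and leaving out a replicate was not possible either. Depth limits Cox7a1 and Cox8b, with 99 and 151 counts over both libraries.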
